A study of Homo sapiens with 8 samples.

Results

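The proteasome subunit genes were taken from the RNA-seq table as the rows whose symbol is PSM followed by one letter from A to F and a number, leaving out the 3 immunoproteasome subunits *PSMB8*, *PSMB9* and *PSMB10* and any row whose gene name says pseudogene. This gave 39 of the 13842 genes in the table. By role they are 7 alpha subunits and 7 beta subunits of the 20S core, of which 3 are catalytic, 6 ATPases and 3 other subunits of the 19S base, 8 subunits of the 19S lid, 3 chaperones of the base, 4 activators and 1 inhibitor, the last 5 called caps below. The testis subunit *PSMA8* and the thymus subunit *PSMB11*, which fit the same naming, had no row in the table. All 39 genes passed the filter on low values, and none held fewer than 754 reads in any library.

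The proteasome is the protease that removes proteins tagged with ubiquitin. Its 20S core is a barrel of stacked rings of alpha and beta subunits with the active sites inside, and the 19S particle, made of a base with an ATPase ring and a lid that removes ubiquitin, sits on its ends, recognises the tag, unfolds the protein and opens the gate. Other caps, the PA28 and PA200 activators, can take the place of the 19S particle, and epithelial cells exposed to interferon replace the catalytic beta subunits by those of the immunoproteasome. Transcription of the subunit genes is known to be coordinated, with NFE2L1 acting on antioxidant response elements when proteasome activity falls short and NF-Y acting on CCAAT boxes.

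The study asked how overexpression of the long non-coding RNA *MALINC1* changes the transcriptome of MCF10A, an immortalised non-tumorigenic breast epithelial line, and of DCIS.COM, a line of the MCF10 series that forms lesions resembling ductal carcinoma in situ. Both lines were stably transduced with a lentiviral vector, either without insert (pLOC-empty) or with the *MALINC1* sequence (pLOC-*MALINC1*), and all cells, controls included, were selected with blasticidin; the promoter that drives the insert is not given in the sources used here. Each of the 4 groups had 2 libraries, 8 in all. MCF10A was cultured with horse serum, epidermal growth factor, hydrocortisone, insulin and cholera toxin and DCIS.COM with horse serum alone, so that line and medium cannot be told apart. Nothing in the labels says whether the 2 libraries of a group came from separate cultures, and the p-values then measure only the spread between these libraries, which may be technical.

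The deposited values were log2 CPM, CPM being the reads of a gene scaled to a fixed library total, and the libraries held 20604377 to 37550457 reads on genes. *MALINC1* itself was at 1.07 and 1.58 CPM in MCF10A pLOC-empty and 13.3 and 11.8 in MCF10A pLOC-*MALINC1*. It was at 1.42 and 1.22 CPM in DCIS.COM pLOC-empty and 24.5 and 19.2 in DCIS.COM pLOC-*MALINC1*. Between the vectors, limma gave a log2 fold change of 3.27 in MCF10A (standard error 0.19, adjusted p = 3.97e-08). For DCIS.COM it was 4.04 (standard error 0.19, adjusted p = 6.93e-09). Every library thus went with its vector label. The controls of both lines had a like level, so this gene does not check the line label. Of 8 epithelial markers all were in the table. Their summed level was 19524 to 19681 CPM in MCF10A pLOC-empty and 26160 to 26800 in MCF10A pLOC-*MALINC1*. It was 6013 to 6115 CPM in DCIS.COM pLOC-empty and 6030 to 6215 in DCIS.COM pLOC-*MALINC1*. The sum hides opposite directions. With either vector *CDH1*, *KRT5*, *KRT14* and *KRT17* were lower in DCIS.COM, and *EPCAM*, *TP63*, *KRT8* and *KRT18* were higher. With pLOC-empty *KRT17* had 9838 and 10132 CPM in MCF10A against 968 and 973 in DCIS.COM. *EPCAM* had 61.5 and 63.1 against 279 and 281 CPM. The table held 1 of 6 fibroblast markers (*COL1A1*, 1.58 to 15.9 CPM), 2 of 6 leukocyte markers (*CD14* and *CD68*, together 4.25 to 14.4 CPM) and 1 of 4 endothelial markers (*PECAM1*, 0.159 to 7.28 CPM), without *PTPRC*, *CDH5* or *DCN*. The 7SL RNA genes *RN7SL1* and *RN7SL2* took 8.22% to 15.7% of the reads of a library, and in both lines less with pLOC-*MALINC1* (10.4% and 11.7% for MCF10A, 8.22% and 11.5% for DCIS.COM) than with pLOC-empty (at least 12.3%). The part of the epithelial markers and of the 7SL genes in the results was not tested. For the 7SL genes, counts of members on a total without them are given with each comparison.

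In MCF10A, most proteasome genes were higher with pLOC-*MALINC1*. At an adjusted p under 0.01 in limma, fitted on all 13842 genes and all 8 libraries, 22 of the 39 genes rose and 1 fell, against 21.5% and 18.1% of all genes. Changes were small: the median log2 fold change of the members was 0.17 beside 0.00 for all genes, the range was -0.13 to 0.39, and no member passed 2-fold, against 5.50% of all genes that did so. Together the 39 genes summed to 4297 and 4283 CPM with pLOC-empty and to 4627 and 4750 CPM with pLOC-*MALINC1*. In bulk RNA, fewer cells of a kind and less RNA per cell cannot be told apart.

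The 20S core rose in 8 of its 14 genes and fell in none, and all 14 lay above the median of all genes. *PSMA5*, an alpha subunit, had 87.2 and 83.7 CPM with pLOC-empty and 99.9 and 113 CPM with pLOC-*MALINC1* (log2 fold change 0.32, standard error 0.051, adjusted p = 0.000238), and the groups did not overlap. Of the catalytic subunits, *PSMB7*, which carries the trypsin-like site, went from 67.9 and 69.9 to 82.0 and 84.0 CPM (log2 fold change 0.27, standard error 0.039, adjusted p = 0.000114). *PSMB5*, with the chymotrypsin-like site that proteasome inhibitors bind, went from 132 and 133 to 146 and 148 CPM (log2 fold change 0.15, standard error 0.035, adjusted p = 0.00276). *PSMB6*, with the caspase-like site, did not pass, at 92.3 and 90.6 against 94.8 and 98.1 CPM (log2 fold change 0.077, standard error 0.036, adjusted p = 0.0876). The other subunits of the core that rose were *PSMA1* (0.24), *PSMA3* (0.20), *PSMA7* (0.17), *PSMB1* (0.15) and *PSMB2* (0.25, all as log2 fold change).

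The lid of the 19S particle rose in 7 of 8 genes in MCF10A, and the eighth, *PSMD8*, had 0.12 (adjusted p = 0.0142). *PSMD12*, a lid scaffold, had 90.6 and 95.7 CPM with pLOC-empty and 117 and 112 CPM with pLOC-*MALINC1* (log2 fold change 0.30, standard error 0.042, adjusted p = 7.50e-05). *PSMD7* had 47.9 and 47.5 against 57.1 and 59.9 CPM (log2 fold change 0.29, standard error 0.043, adjusted p = 0.000104) and *PSMD14*, the deubiquitinase with which it pairs in the lid, 142 and 136 against 158 and 165 CPM (log2 fold change 0.21, standard error 0.038, adjusted p = 0.000488). The base moved less. Of its 6 ATPases *PSMC1* and *PSMC4* rose (0.20 and 0.24), and *PSMC3* was the one member that fell, from 203 and 207 to 187 and 187 CPM (log2 fold change -0.13, standard error 0.033, adjusted p = 0.00624); its call was lost when any library of MCF10A was left out. The 3 base subunits without ATPase activity, *PSMD1* and *PSMD2*, which dock ubiquitin carriers, and the ubiquitin receptor *PSMD4*, had log2 fold changes of 0.064, -0.0033 and -0.063, none of which passed. Of the 3 chaperones that assemble the base, *PSMD5* (0.18) and *PSMD9* (0.18) rose and *PSMD10* was at -0.061 (adjusted p = 0.409).

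Among the alternative caps in MCF10A, the nuclear activator *PSME3* (PA28 gamma) had the largest rise of all 39 members, from 79.7 and 74.4 to 101 and 100.3 CPM (log2 fold change 0.39, standard error 0.04, adjusted p = 6.28e-06), with both libraries of pLOC-*MALINC1* clear of the controls. *PSME4* (PA200) went from 79.2 and 75.2 to 92.9 and 88.2 CPM (log2 fold change 0.23, standard error 0.043, adjusted p = 0.00079) and the inhibitor *PSMF1* (PI31) from 75.0 and 77.0 to 85.6 and 85.2 CPM (log2 fold change 0.17, standard error 0.038, adjusted p = 0.00268). The interferon-inducible pair *PSME1* and *PSME2* did not pass, with -0.11 (adjusted p = 0.0852) and 0.12 (adjusted p = 0.06). The count of 22 rises was smaller without pLOC-*MALINC1* replicate 2 of MCF10A. It was 10 when the prior variance was fitted without a trend, 16 on the total without the 7SL genes and 18 on the plain total of reads. The shares of all genes called under these settings are not given here, so these counts have no background beside them. All 23 called members kept their direction under the 4 other scalings.

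In DCIS.COM, overexpression of *MALINC1* went with lower proteasome genes on the deposited scale: 4 members rose and 14 fell, against 16.4% and 16.7% of all genes. Their median log2 fold change was -0.090 beside 0.0089 for all genes, the range was -0.38 to 0.31, and again no member passed 2-fold, against 4.53% of all genes. The 39 genes summed to 5249 and 5152 CPM with pLOC-empty and to 4915 and 4996 CPM with pLOC-*MALINC1*. Direction and split depend on the scaling. As a share of all reads on genes, without the scaling factors of the authors, the members were not lower: they held 0.522% and 0.524% with pLOC-empty against 0.529% and 0.553% with pLOC-*MALINC1*. On this plain total their median was 0.027 and that of all genes 0.13, and 7 members rose and 2 fell. On the total without the 7SL genes 5 rose and 10 fell. As a share of that total the members were slightly lower. They held 0.620% and 0.609% with pLOC-empty against 0.597% and 0.602% with pLOC-*MALINC1*. The shares of all genes called on both totals are not given here, so these counts have no background beside them. Relative to the median of all genes, 29 of 39 members were lower on both of these scales as on the deposited one, and each of the 18 called members kept its direction.

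All 14 genes of the 20S core lay below the median of all genes in DCIS.COM under the deposited and the 4 other scalings, and 7 of them fell on the deposited scale (5 without the 7SL genes in the total, and 1, *PSMA6*, on the plain total). *PSMA6* had 228 and 218 CPM with pLOC-empty and 183 and 185 CPM with pLOC-*MALINC1* (log2 fold change -0.28, standard error 0.037, adjusted p = 6.87e-05), with a wide gap between the groups. *PSMA2* (-0.24), *PSMA3* (-0.16) and *PSMA4* (-0.23) of the alpha ring and *PSMB1* (-0.19), *PSMB2* (-0.16) and *PSMB5* (-0.13) of the beta ring also fell. *PSMB5* had 142 and 135 against 127 and 125 CPM (adjusted p = 0.00692), a smaller gap. The other catalytic subunits did not pass: *PSMB6* had 109 and 106 against 101 and 101 CPM (log2 fold change -0.090, standard error 0.036, adjusted p = 0.0559), and *PSMB7* had 74.3 and 71.0 against 66.0 and 66.0 CPM (log2 fold change -0.14, standard error 0.039, adjusted p = 0.0129).

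In the 19S particle of DCIS.COM, 3 of 17 genes rose and 3 fell (17.6% each). These shares were near the 16.4% and 16.7% of all genes. *PSMC4*, an ATPase of the base, had 141 and 135 CPM with pLOC-empty and 164 and 164 CPM with pLOC-*MALINC1* (log2 fold change 0.25, standard error 0.039, adjusted p = 0.000216). The lid genes *PSMD3* (0.20, adjusted p = 0.000449) and *PSMD11* (0.16, adjusted p = 0.00327) rose as well. *PSMD7* fell from 48.1 and 47.9 to 41.4 and 41.2 CPM (log2 fold change -0.21, standard error 0.043, adjusted p = 0.00133) and *PSMD14* from 145 and 144 to 127 and 132 CPM (log2 fold change -0.16, standard error 0.038, adjusted p = 0.00405), and the ATPase *PSMC6* fell with a log2 fold change of -0.15 (adjusted p = 0.00972). The other lid genes lay between -0.077 (*PSMD13*) and 0.028 (*PSMD8*) and did not pass. Of the base chaperones, *PSMD10*, also known as gankyrin, fell from 38.5 and 40.7 to 30.5 and 32.3 CPM (log2 fold change -0.33, standard error 0.059, adjusted p = 0.000557).

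The caps split in DCIS.COM. *PSME1* had 86.7 and 87.1 CPM with pLOC-empty and 65.1 and 68.2 CPM with pLOC-*MALINC1* (log2 fold change -0.38, standard error 0.049, adjusted p = 4.39e-05), the largest fall of the 39 members, and its partner *PSME2* had 84.1 and 77.5 against 69.3 and 65.5 CPM (log2 fold change -0.26, standard error 0.05, adjusted p = 0.00103). *PSME4* fell from 98.4 and 98.8 to 79.8 and 84.5 CPM (log2 fold change -0.26, standard error 0.043, adjusted p = 0.000347). *PSME3* rose from 67.5 and 66.2 to 82.8 and 82.5 CPM (log2 fold change 0.31, standard error 0.04, adjusted p = 5.97e-05), and *PSMF1* had 53.7 and 55.0 against 59.9 and 58.9 CPM (log2 fold change 0.13, standard error 0.038, adjusted p = 0.0151), which did not pass. The count of 14 falls was smaller when any library of DCIS.COM was left out. It was 8 when DCIS.COM was fitted alone and 2 without a trend in the prior variance. The shares of all genes called under these settings are not given here.

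**Figure D1:**
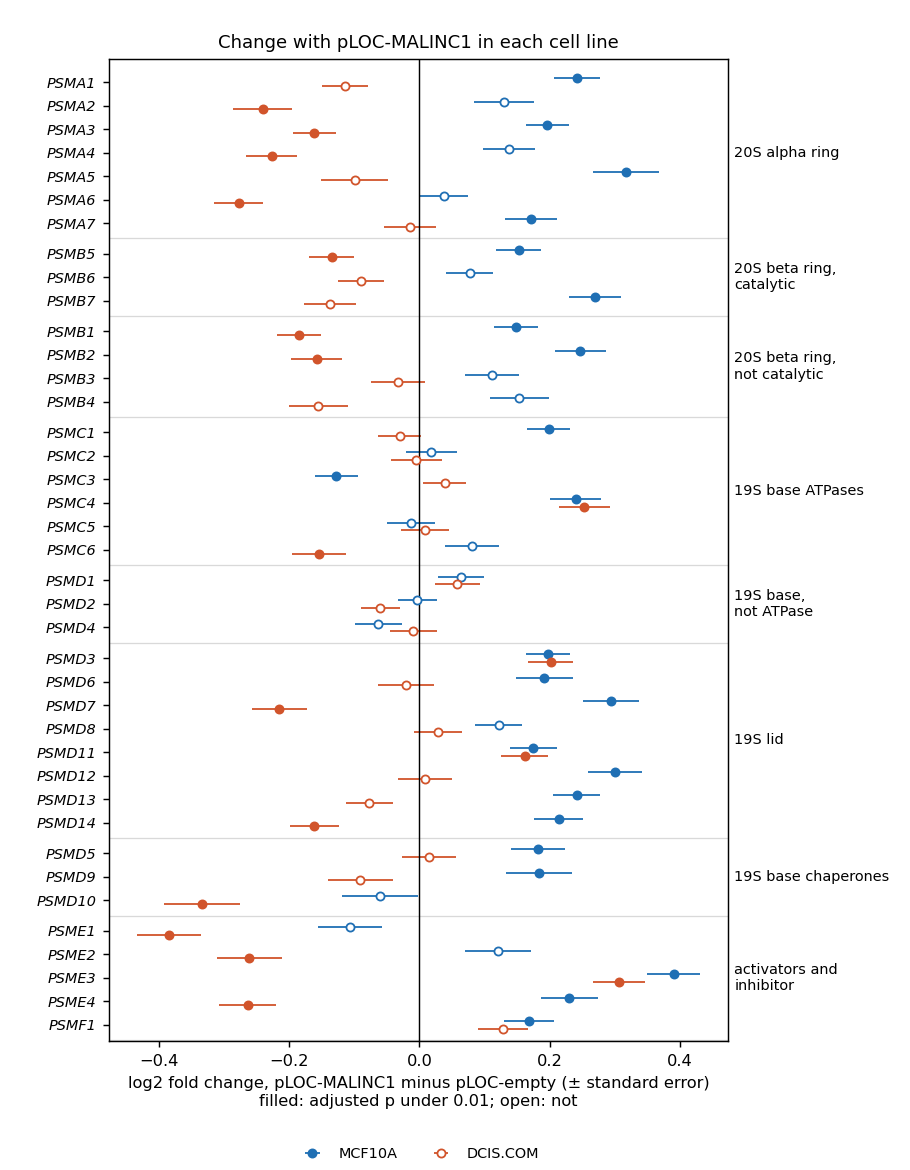
Log2 fold change with pLOC-*MALINC1* relative to pLOC-empty (x axis) for each of the 39 proteasome genes (rows, grouped by role) in MCF10A (blue) and DCIS.COM (orange), with the standard error as bars; filled points have an adjusted p under 0.01. The 14 genes of the 20S core lie right of 0 in MCF10A and left of it in DCIS.COM; on the plain total of reads 5 of the 14 move to the right of 0 in DCIS.COM, and without the 7SL genes in the total 2 do, and 1 moves to the left of 0 in MCF10A.

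Set side by side, 7 members rose in MCF10A and fell in DCIS.COM: *PSMA3*, *PSMB1*, *PSMB2*, *PSMB5*, *PSMD7*, *PSMD14* and *PSME4*. A group of 4 rose in both lines, namely *PSMC4*, *PSMD3*, *PSMD11* and *PSME3*. The share of all genes with any such pair of calls was not counted. Taken singly, 21.5% of all genes rose in MCF10A, and 16.4% rose and 16.7% fell in DCIS.COM. Of the 7 opposite pairs of calls, 3 (*PSMA3*, *PSMD7* and *PSME4*) held on the total without the 7SL genes and 0 on the plain total, where none of the 7 falls in DCIS.COM passed. The 4 shared rises held on both totals, and 3 of them (without *PSMD11*) under quantile normalization. Another 11 rose in MCF10A without passing in DCIS.COM, 7 fell in DCIS.COM without passing in MCF10A, *PSMC3* fell in MCF10A alone, and 9 passed in neither. The difference between the lines was therefore tested itself, as the log2 fold change in DCIS.COM minus that in MCF10A. Here 21 of 39 members were lower and none higher in limma (1, *PSMC3*, was higher at an unadjusted p under 0.05), against 20.3% and 15.6% of all genes (9.20% of all genes differed by over 2-fold, and no member did). The members had a median difference of -0.27, beside -0.0071 for all genes. With pLOC-*MALINC1*, *MALINC1* itself was at 24.5 and 19.2 CPM in DCIS.COM against 13.3 and 11.8 in MCF10A. Line, medium, transduction and level of *MALINC1* therefore cannot be told apart in this difference. Under 8 other settings, the plain total among them, *PSMC3* was called higher, and the count of lower members was 10 on the plain total and 8 without a trend in the prior variance. On the total without the 7SL genes it was 17. The shares of all genes called under these other settings are not given here, so the counts have no background beside them.

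The members with the largest difference were *PSMD7* (-0.51, standard error 0.06, adjusted p = 2.24e-05), *PSME4* (-0.49, 0.061, 3.39e-05) and *PSMA5* (-0.42, 0.072, 0.000468). *PSMD7* lies at chr16:74330712-74340186, plus strand, in GRCh37 (hg19), and *PSME4* at chr2:54091206-54198130, minus strand. In the controls of both lines *PSMD7* stood at a like level, with 47.9 and 47.5 CPM for MCF10A against 48.1 and 47.9 for DCIS.COM, and the lines came apart with *MALINC1*, at 57.1 and 59.9 against 41.4 and 41.2 CPM. By role, the 20S core had 11 of 14 genes lower and all 14 below 0 under every scaling, with a median of -0.34. The 19S base and lid had 6 of 17 lower (*PSMC1*, *PSMC6*, *PSMD7*, *PSMD12*, *PSMD13* and *PSMD14*), with a median of -0.057 that was 0.018 without the 7SL genes in the total and 0.072 on the plain total. *PSMD9*, *PSME1*, *PSME2* and *PSME4* completed the 21. The 4 members that rose in both lines had differences of 0.013 (*PSMC4*), 0.0038 (*PSMD3*), -0.014 (*PSMD11*) and -0.084 (*PSME3*), with standard errors of 0.055, 0.049, 0.052 and 0.057. Of these, *PSMD3*, *PSMD11* and *PSME3* are on chromosome 17, which holds 7 of the 39 genes, and *PSMC4* is on chromosome 19.

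**Figure D2:**
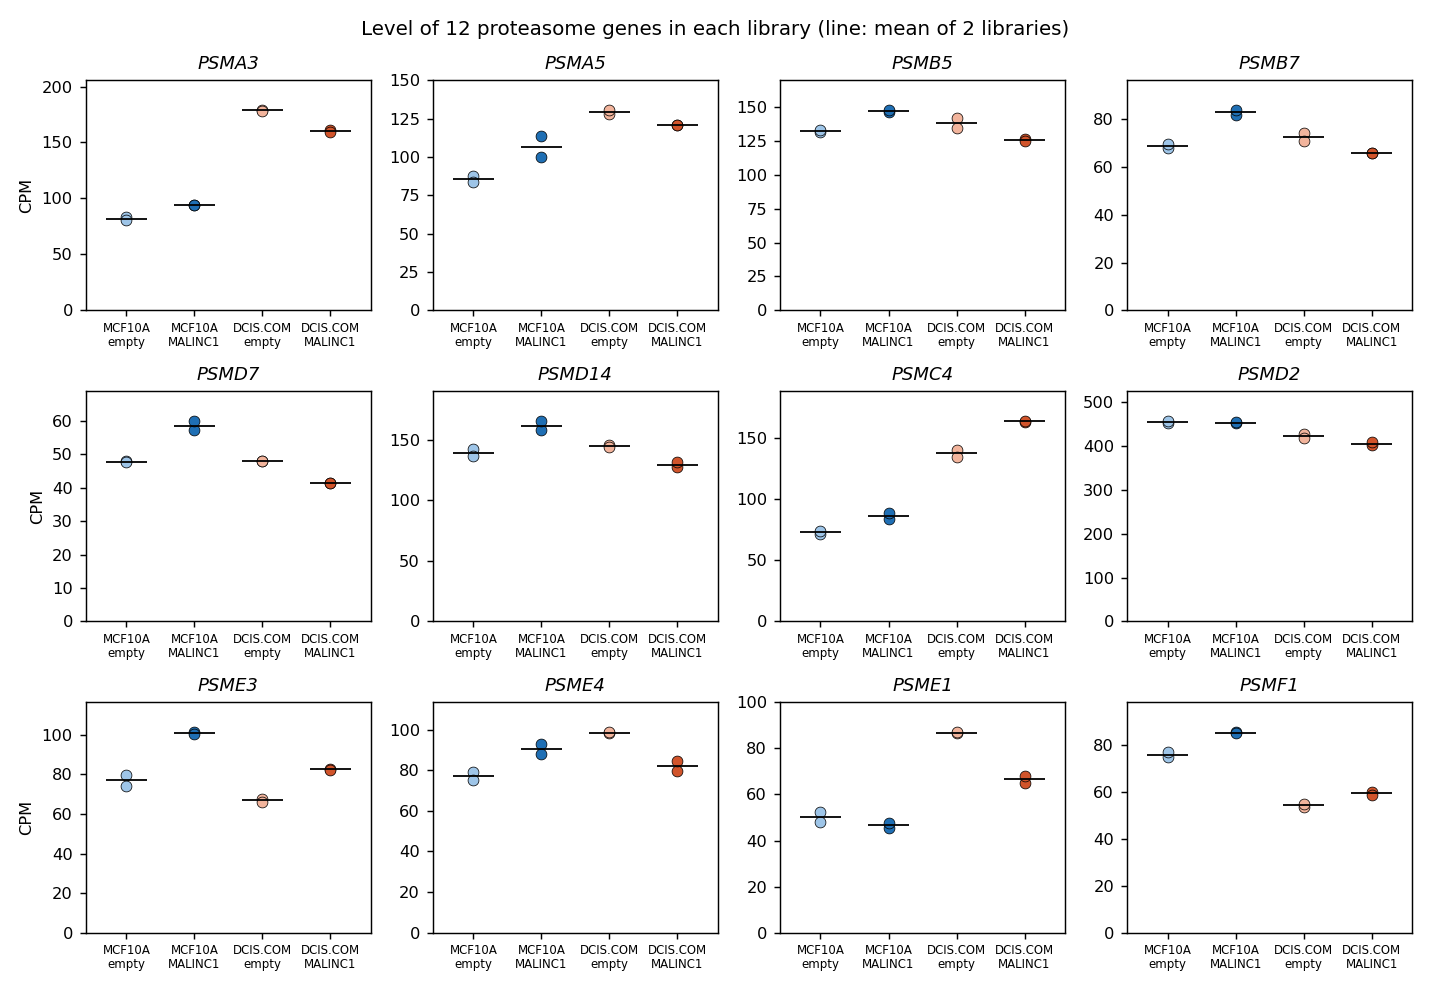
Level in CPM (y axis, from 0) of 12 proteasome genes in each library, by cell line and vector (x axis), with a line at the mean of the 2 libraries of a group. *PSMD7* is near 48 CPM in both controls and separates with *MALINC1*, *PSME3* is higher with *MALINC1* in both lines, and *PSMC4* is higher in all 4 libraries of DCIS.COM.

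The promoters of members called in both lines show what sequence lies in front of genes that moved together or apart. Of those 11 genes, 9 have a single promoter in the RefSeq table (GRCh38.p14), and 6 of these hold, in the last 90 bases before the start of the gene, at least 1 of 3 motifs: the antioxidant response element core TGACNNNGC, the CCAAT box, or the ETS core CCGGAA, each searched on both strands. They are printed below 5′ to 3′ on the strand of the gene, with the motif matches in capitals. The first 3 rose in both lines, the last 3 rose in MCF10A and fell in DCIS.COM on the deposited scale.
*PSMD3* chr17:39980717-39980806, plus strand: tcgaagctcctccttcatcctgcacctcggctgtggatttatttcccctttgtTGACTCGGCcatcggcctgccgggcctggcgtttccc
*PSMD11* chr17:32444420-32444509, plus strand: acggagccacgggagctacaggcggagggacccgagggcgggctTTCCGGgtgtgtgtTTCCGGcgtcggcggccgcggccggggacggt
*PSME3* chr17:42833307-42833396, plus strand: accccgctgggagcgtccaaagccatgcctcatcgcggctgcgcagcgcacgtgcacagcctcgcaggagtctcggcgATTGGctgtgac
*PSMA3* chr14:58244753-58244842, plus strand: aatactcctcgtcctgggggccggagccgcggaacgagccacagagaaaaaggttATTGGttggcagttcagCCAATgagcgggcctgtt
*PSMD14* chr2:161308335-161308424, plus strand: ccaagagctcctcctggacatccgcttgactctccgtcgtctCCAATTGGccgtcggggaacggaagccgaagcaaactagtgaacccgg
*PSME4* chr2:53970994-53971083, minus strand: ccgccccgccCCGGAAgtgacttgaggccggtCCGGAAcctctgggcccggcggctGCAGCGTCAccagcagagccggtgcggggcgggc
The capitals mark an antioxidant response element core in *PSMD3*, an ETS core at 2 places in *PSMD11*, a CCAAT box on the opposite strand in *PSME3*, CCAAT boxes in both orientations in *PSMA3*, overlapping CCAAT boxes on both strands in *PSMD14*, and an ETS core at 2 places with an antioxidant response element core in *PSME4*. In the printed stretches no match of 1 motif overlaps a match of another, and both sets hold each of the 3 motifs. Only promoters with a match were printed.

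Over the whole promoter window of 300 bases (250 before and 50 after the start), 34 of the 39 members had an entry. The ETS core was in 20 of the 34 (58.8%), against 34.3% of 10497 tested genes with a promoter and 17.2% of all promoters. The antioxidant response element core was in 12 (35.3%), against 19.3% and 13.3%, and the CCAAT box in 17, against 43.5% and 34.6%. Some genes have several promoters in the table and count as holding a motif when any of them does. A match describes these letters and is not a measured site.

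Inside a library, the balance of core and regulatory particle can be read without any scaling, since both are divided by the same total. The mean log2 CPM of the 14 core genes minus that of the 17 genes of the 19S base and lid was -0.20 and -0.22 in the libraries of MCF10A pLOC-empty, -0.19 and -0.15 in MCF10A pLOC-*MALINC1*, 0.17 and 0.19 in DCIS.COM pLOC-empty, and 0.042 and 0.021 in DCIS.COM pLOC-*MALINC1*. The 4 groups did not overlap, and DCIS.COM was above MCF10A with either vector. With *MALINC1* the value was lower in DCIS.COM and slightly higher in MCF10A. The medians in place of the means gave -0.042 and -0.079, -0.11 and 0.10, 0.14 and 0.24, and 0.10 and 0.064, with the groups in the order above. By medians the libraries of MCF10A pLOC-*MALINC1* lay on both sides of 0, the 2 vectors overlapped in MCF10A, and the second of those libraries lay within the range of DCIS.COM pLOC-*MALINC1*. This balance rests on genes of different length, so its level is not of use. Across the 39 members, changes between lines had a Spearman correlation with the length of the canonical transcript of -0.39 (pLOC-empty) and -0.41 (pLOC-*MALINC1*). For the change with *MALINC1* it was 0.35 (MCF10A) and 0.33 (DCIS.COM). The part of length in the change of the balance between libraries was not tested.

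**Figure D3:**
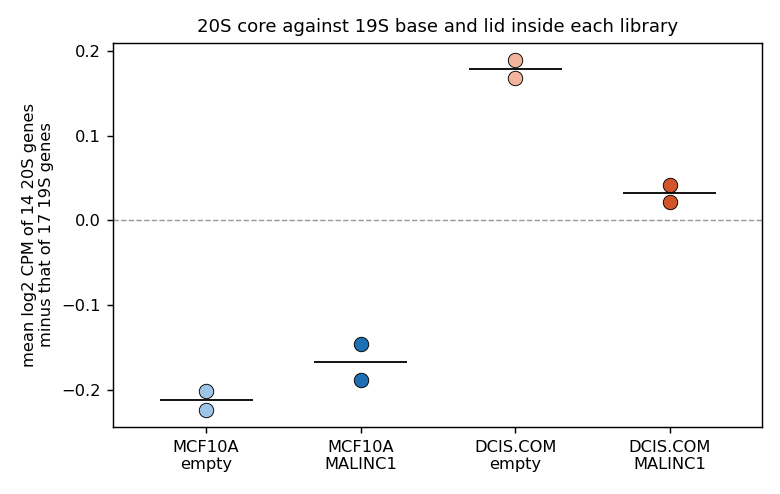
Mean log2 CPM of the 14 genes of the 20S core minus that of the 17 genes of the 19S base and lid (y axis) in each library, by cell line and vector (x axis), with a line at the mean of 2 libraries. The libraries of MCF10A lie between -0.22 and -0.15, and those of DCIS.COM between 0.021 and 0.19, with the pLOC-*MALINC1* libraries below the pLOC-empty ones.

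Between the cell lines, log2 fold changes of the members ran from -0.50 to 1.27 with pLOC-empty and from -0.67 to 0.96 with pLOC-*MALINC1*. With pLOC-empty, 20 members were higher in DCIS.COM than in MCF10A and 7 lower, where 37.9% and 36.0% of all genes were, and the median log2 fold change was 0.17 beside 0.031 for all genes. The 3 members over 2-fold (28.6% of all genes) were *PSMB4*, *PSMA3* and *PSME2*. With pLOC-*MALINC1*, 12 were higher and 14 lower, where 35.7% and 37.2% of all genes were, with a median of 0.035 beside 0.0055, and no member passed 2-fold (26.6% of all genes). Without the 7SL genes in the total, the median of all genes moved to 0.14 and 0.18, and on the plain total to 0.10 and 0.20. The split was then 29 higher and 3 lower, or 27 and 3, with pLOC-empty, and 20 and 6, or 20 and 4, with pLOC-*MALINC1*. Quantile normalization gave 28 and 3, and 19 and 9. The shares of all genes called under these scalings are not given here. Without pLOC-*MALINC1* replicate 1 of MCF10A, the median with that vector was -0.039. Relative to the median of all genes, 29 members were above and 10 below with pLOC-empty, and 20 above and 19 below with pLOC-*MALINC1*, under the deposited scaling, both totals and centring.

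The 20S core was higher in DCIS.COM with pLOC-empty in 12 of 14 genes, and the 2 others, *PSMB5* and *PSMB7*, were 0.062 and 0.077. *PSMB4*, a beta subunit at chr1:151372036-151374413, plus strand, had 82.7 and 75.6 CPM in MCF10A pLOC-empty, 86.2 and 89.7 in MCF10A pLOC-*MALINC1*, 195 and 186 in DCIS.COM pLOC-empty and 171 and 172 in DCIS.COM pLOC-*MALINC1*. Its log2 fold change between the lines was 1.27 (standard error 0.045, adjusted p = 3.75e-11) with pLOC-empty and 0.96 (standard error 0.045, adjusted p = 6.62e-10) with pLOC-*MALINC1*. *PSMA3*, at chr14:58711561-58738730, plus strand, had 83.4 and 80.5 CPM in MCF10A pLOC-empty, 94.0 and 93.8 in MCF10A pLOC-*MALINC1*, 179 and 179 in DCIS.COM pLOC-empty and 161 and 159 in DCIS.COM pLOC-*MALINC1* (1.13 and 0.77, adjusted p = 7.05e-12 and 3.10e-10). For both genes the lines stood far apart whichever vector they carried. With pLOC-*MALINC1* the core had 6 genes higher and 2 lower (42.9% and 14.3%, beside 35.7% and 37.2% of all genes). In limma the 2 lower ones were *PSMB5* (-0.23, adjusted p = 5.70e-05) and *PSMB7* (-0.33, adjusted p = 5.89e-06). The catalytic subunits thus ended lower in DCIS.COM than in MCF10A for 2 of 3. On the plain total neither of the 2 was called.

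In the 19S particle, 5 of 17 genes were higher and 3 lower in DCIS.COM with pLOC-empty. These shares, 29.4% and 17.6%, were below the 37.9% and 36.0% of all genes. *PSMC4* had 72.1 and 74.0 CPM in MCF10A pLOC-empty, 83.9 and 88.7 in MCF10A pLOC-*MALINC1*, 141 and 135 in DCIS.COM pLOC-empty and 164 and 164 in DCIS.COM pLOC-*MALINC1*, a log2 fold change between the lines of 0.91 (adjusted p = 2.29e-10) and 0.93 (adjusted p = 2.42e-10). *PSMD8*, a lid subunit, went from 128 and 133 CPM (MCF10A) to 244 and 235 CPM (DCIS.COM) with pLOC-empty (0.88), and from 138 and 145 to 243 and 245 CPM with pLOC-*MALINC1* (0.79). The ATPase *PSMC3* went the other way, from 203 and 207 CPM (MCF10A) to 147 and 142 CPM (DCIS.COM) (-0.50, adjusted p = 1.51e-08). With pLOC-*MALINC1* 4 were higher and 8 lower (23.5% and 47.1%, beside 35.7% and 37.2% of all genes). The lid holds 8 of the 17 genes, and 5 of the 8 lower ones were lid genes. These were *PSMD6* (-0.24), *PSMD7* (-0.50), *PSMD12* (-0.29), *PSMD13* (-0.23) and *PSMD14* (-0.32). None of these 5 had passed with pLOC-empty, where they lay between -0.030 and 0.084. Of the 5 lid calls, 2 (*PSMD7* and *PSMD14*) held on the total without the 7SL genes and 1 (*PSMD7*) on the plain total; quantile normalization kept 3. *PSMD1* and *PSMD2* were slightly lower with both vectors (-0.17 and -0.18, -0.10 and -0.16), but *PSMD1* with pLOC-*MALINC1* and *PSMD2* with both vectors crossed 0 under other scalings.

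Of the chaperones and caps, *PSMD9* was lower in DCIS.COM with both vectors, at 45.6 and 49.2 CPM in MCF10A pLOC-empty, 53.4 and 54.2 in MCF10A pLOC-*MALINC1*, 35.2 and 36.8 in DCIS.COM pLOC-empty and 33.5 and 34.2 in DCIS.COM pLOC-*MALINC1* (-0.39 and -0.67, adjusted p = 1.05e-05 and 6.79e-08). *PSMF1* was lower too, at 75.0 and 77.0 CPM in MCF10A pLOC-empty, 85.6 and 85.2 in MCF10A pLOC-*MALINC1*, 53.7 and 55.0 in DCIS.COM pLOC-empty and 59.9 and 58.9 in DCIS.COM pLOC-*MALINC1* (-0.48 and -0.52, adjusted p = 9.14e-08 and 4.68e-08), and every library of DCIS.COM was below those of MCF10A. *PSME1* and *PSME2*, neighbours on chromosome 14, were higher: *PSME1* had 0.79 and 0.51, and *PSME2* had 37.7 and 36.8 CPM in MCF10A pLOC-empty, 41.1 and 39.8 in MCF10A pLOC-*MALINC1*, 84.1 and 77.5 in DCIS.COM pLOC-empty and 69.3 and 65.5 in DCIS.COM pLOC-*MALINC1* (1.12 and 0.74, adjusted p = 3.48e-10 and 2.42e-08). *PSME3* was lower with both vectors (-0.20 and -0.29), and *PSME4* was higher with pLOC-empty (0.35, adjusted p = 7.18e-06) and at -0.14 with pLOC-*MALINC1* (adjusted p = 0.0103). The contrasts of vectors and of lines share the same 8 libraries, so a member that falls with *MALINC1* in DCIS.COM also loses ground between the lines by construction.

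**Figure D4:**
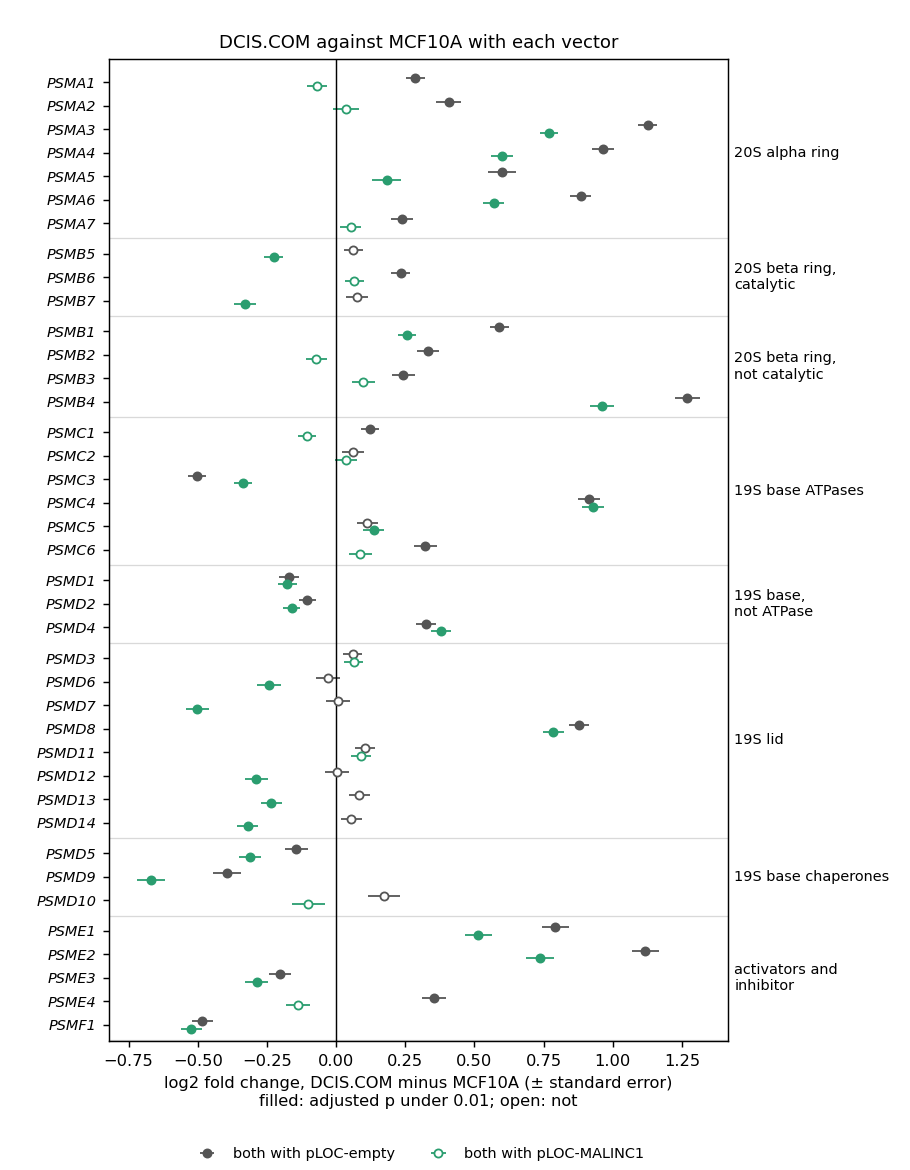
Log2 fold change between DCIS.COM and MCF10A (x axis) for each of the 39 proteasome genes (rows, grouped by role), between the pLOC-empty libraries (grey) and between the pLOC-*MALINC1* libraries (green), with the standard error as bars; filled points have an adjusted p under 0.01. *PSMB4*, *PSMA3* and *PSME2* lie beyond 1 with pLOC-empty, and 7 members that are open and near 0 with pLOC-empty are filled and left of 0 with pLOC-*MALINC1* (on the plain total 1 of them, *PSMD7*, was still called lower); of all the called points, only *PSMD1* (pLOC-*MALINC1*) and *PSMD2* (both vectors) cross 0 under another scaling.

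The immunoproteasome subunits, which take the place of *PSMB5*, *PSMB6* and *PSMB7* in new cores, were no members and are given for comparison. *PSMB8* had 16.8 and 17.5 CPM in MCF10A pLOC-empty, 17.6 and 18.8 in MCF10A pLOC-*MALINC1*, 47.6 and 46.7 in DCIS.COM pLOC-empty and 33.4 and 36.3 in DCIS.COM pLOC-*MALINC1*. *PSMB9* was low, with 0.554 and 0.470 CPM in MCF10A pLOC-empty, 0.517 and 0.260 in MCF10A pLOC-*MALINC1*, 7.25 and 7.38 in DCIS.COM pLOC-empty and 4.32 and 4.12 in DCIS.COM pLOC-*MALINC1*, and *PSMB10* had 12.3 and 14.4 CPM in MCF10A pLOC-empty, 15.8 and 14.7 in MCF10A pLOC-*MALINC1*, 27.8 and 26.6 in DCIS.COM pLOC-empty and 22.2 and 25.2 in DCIS.COM pLOC-*MALINC1*. All 3 were higher in DCIS.COM with pLOC-empty, by 1.46, 3.84 and 1.03 on the log2 scale (adjusted p = 2.13e-10, 3.50e-08 and 2.27e-07), and with pLOC-*MALINC1*, by 0.94, 3.52 and 0.64. With *MALINC1*, *PSMB8* fell in DCIS.COM (log2 fold change -0.44, standard error 0.062, adjusted p = 0.000108) and was 0.085 (adjusted p = 0.27) in MCF10A, and this difference passed (-0.52, adjusted p = 0.000374). *PSMB9* was -0.48 (adjusted p = 0.164) in MCF10A and -0.79 (adjusted p = 0.0318) in DCIS.COM, and *PSMB10* 0.20 (adjusted p = 0.0819) and -0.20 (adjusted p = 0.0853). Exons of *PSMB8* and *PSMB9* overlap on opposite strands of chromosome 6, and the strand setting of the counting is not given in the sources used here.

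Per kilobase of the canonical transcript, levels can be set beside each other within a group. In MCF10A pLOC-empty the 39 members ranged from 9.32 CPM per kilobase (*PSMF1*) to 178 (*PSMA7*), with a median of 98.2 for the 20S core, 65.7 for the 19S base and lid, 17.4 for the base chaperones and 24.2 for the caps. In DCIS.COM pLOC-empty the medians were 133, 68.5, 14.8 and 21.0, and the highest member was *PSMA6* (218). With pLOC-*MALINC1* they were 108, 72.6, 19.7 and 31.7 for MCF10A, and 123, 70.9, 15.0 and 26.0 for DCIS.COM. The catalytic subunits stood well above their immunoproteasome counterparts in every group: in DCIS.COM pLOC-empty, *PSMB5* had 132, *PSMB6* 130.4 and *PSMB7* 73.8 CPM per kilobase, against 42.0 for *PSMB8*, 7.19 for *PSMB9* and 27.9 for *PSMB10*. In MCF10A pLOC-empty the same genes had 127, 111 and 70.0 against 15.3, 0.503 and 13.6. The lengths, 762 to 8154 bases among the members, are those of the annotation and were not measured here. Across the 39 members, the change with *MALINC1* had a Spearman correlation with this length of 0.35 (MCF10A) or 0.33 (DCIS.COM), and the changes between lines of -0.39 and -0.41, a description over genes that share the same libraries.

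The genes that make, serve or regulate the proteasome were followed in further lists, counted here at an adjusted p under 0.01. Of 7 assembly factors, 2 rose in MCF10A and 2 rose and 2 fell in DCIS.COM, shares of 28.6% beside the 21.5% of all genes that rose in MCF10A and the 16.4% and 16.7% that rose and fell in DCIS.COM. *POMP*, which matures the beta ring, had 93.7 and 92.4 CPM in MCF10A pLOC-empty, 107 and 113 in MCF10A pLOC-*MALINC1*, 111 and 113 in DCIS.COM pLOC-empty and 98.8 and 100.0 in DCIS.COM pLOC-*MALINC1* (0.24 in MCF10A, -0.18 in DCIS.COM, difference -0.42, adjusted p = 3.73e-05). *PSMG1*, an alpha ring chaperone, rose in both lines (0.21 and 0.22), its partner *PSMG2* fell in DCIS.COM (-0.21), and *PSMG3* rose there (0.35). *PSMG4* had 0.31 (adjusted p = 0.0148) in MCF10A and was higher in DCIS.COM with pLOC-empty (0.58), as *PSMG3* was with pLOC-*MALINC1* (0.47). *PAAF1* had -0.38 (adjusted p = 0.0282) in DCIS.COM.

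Of 15 associated factors, 8 rose in MCF10A and 4 in DCIS.COM (53.3% and 26.7%, beside 21.5% and 16.4% of all genes). None fell in limma, with 1 lower in MCF10A and 3 in DCIS.COM at an unadjusted p under 0.05. For the difference between the lines, 1 of the 15 was higher (*UBQLN2*) and 5 were lower. These were 6.67% and 33.3%, beside 15.6% and 20.3% of all genes. *UCHL5*, a deubiquitinase of the base, went from 39.4 and 39.1 to 55.2 and 50.8 CPM in MCF10A (log2 fold change 0.43, standard error 0.048, adjusted p = 1.24e-05) and was at 59.7 and 57.0 against 59.9 and 59.0 CPM in DCIS.COM (0.027, adjusted p = 0.681). *USP14*, the other deubiquitinase of the base, was over 2-fold lower in DCIS.COM with pLOC-*MALINC1* (-1.15; 56.2 and 56.4 CPM for MCF10A, 24.9 and 25.9 for DCIS.COM). *UBQLN2*, a shuttle for ubiquitinated proteins, had 22.3 and 22.0 CPM in MCF10A pLOC-empty, 18.7 and 18.5 in MCF10A pLOC-*MALINC1*, 8.28 and 8.66 in DCIS.COM pLOC-empty and 12.5 and 12.2 in DCIS.COM pLOC-*MALINC1* with a difference of 0.80 (adjusted p = 4.05e-05); it was lower in DCIS.COM with pLOC-empty (-1.39). *ZFAND2A*, a stress-induced factor, was over 2-fold lower in DCIS.COM with pLOC-*MALINC1* (-1.52, at 7.57 and 7.70 CPM in MCF10A against 3.01 and 2.35 in DCIS.COM). The ubiquitin receptor of the base *ADRM1* rose in both lines (0.21 and 0.22).

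Of the genes that encode ubiquitin, *RPS27A*, which encodes ubiquitin fused to a ribosomal protein, had 805 and 817 CPM in MCF10A pLOC-empty, 897 and 884 in MCF10A pLOC-*MALINC1*, 1176 and 1216 in DCIS.COM pLOC-empty and 957 and 957 in DCIS.COM pLOC-*MALINC1* (difference -0.46, adjusted p = 5.75e-06), rising in MCF10A (0.14) and falling in DCIS.COM (-0.32). *UBB*, a polyubiquitin gene, did likewise (0.14 and -0.30) and was over 2-fold higher in DCIS.COM with pLOC-empty (1.33, 217 and 207 against 534 and 531 CPM) and 0.89 with pLOC-*MALINC1*. Of 8 genes of the NFE2L1 route, 1 rose and 1 fell in MCF10A (12.5% each, beside 21.5% and 18.1% of all genes) and 2 rose in DCIS.COM (25% beside 16.4%). *NFE2L1*, the transcription factor that drives proteasome genes, fell in MCF10A from 338 and 349 to 290.1 and 279 CPM (log2 fold change -0.27, standard error 0.034, adjusted p = 3.42e-05) and was at 254 and 247 against 252 and 259.9 CPM in DCIS.COM (0.029, adjusted p = 0.52), a difference of 0.30 (adjusted p = 0.000275). *FBXW7*, a ubiquitin ligase subunit that targets NFE2L1, rose in both (0.34 and 0.54). *SYVN1* had 0.35 (adjusted p = 0.0169) in MCF10A, and *DDI2*, the protease that activates NFE2L1, was higher in DCIS.COM with both vectors (0.70 and 0.68).

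Reads may be shared between genes. Of the 39 members 17 have exons that overlap another annotated gene, among them *PSMD7*, *PSME3*, *PSME4* and *PSMF1*, and 16 have at least 1 annotated pseudogene that carries their name, *PSMC1* 13 of them and *PSME2* 6. How the counting divided such reads is not given in the sources used here, and the values of those genes are uncertain to that extent.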

How the data were processed

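RNA-seq was available for 2 breast lines, MCF10A and DCIS.COM, each with pLOC-empty or pLOC-*MALINC1* (2 libraries per group). Per the study's methods, the authors mapped paired-end ScriptSeq reads with Rsubread (hg19), ran featureCounts on the UCSC gene models, and deposited edgeR-normalized log2 CPM. Strand setting, low-expression filter and versions are not given in the sources used here. The values hold a prior count of 2 scaled to library size, and with it every value checked gave whole reads within 0.05 of a read. The most abundant genes were left out of this check, and their reads were rounded. Depth was taken from the recovered reads of all genes.

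A linear model was run on these values in limma 3.58.1, R 4.3.3 (eBayes with trend, Benjamini-Hochberg over all genes), with 4 group means and 7.98 prior beside 4 residual degrees of freedom. The filter, 0.5 CPM in 2 or more libraries, removed none of the 13842 genes. A gene was called at an adjusted p under 0.01. The steps were run on simulated counts with the same spread setting for every gene and group. The simulation therefore cannot show how well a shared spread describes the real libraries. Replicates differed by more than counting noise (chi-square per degree of freedom 3.23 to 20.2). Coordinates and canonical lengths are those of GRCh37 with the GENCODE annotation lifted to it, promoters those of RefSeq (GRCh38.p14). Summaries and plots used Python 3.11.15, pandas 2.3.3, numpy 2.4.6, scipy 1.17.1 and matplotlib 3.10.9. 

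Members and gene lists were chosen with earlier results of these data known. Named with values are the catalytic subunits, *PSMD14*, the caps and *PSMF1*, the 3 largest called rises and falls in each comparison, members called for the difference between lines, members over 2-fold, the largest change in each other list and, for description, further members of each role; the promoters printed were chosen after the values were seen. One gene of the ubiquitin list, and the counts over that list, are not reported here. Alternatives changed the pseudocount, filter, scaling, model, threshold and libraries. Voom weights in limma were fitted on the recovered reads. For the 39 members they called 23 higher and 1 lower in MCF10A and 4 and 15 in DCIS.COM.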

Additional observations from a re-analysis of the deposited data

Results flagged for a closer look

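The change with *MALINC1* differed between the lines (limma, adjusted p under 0.01 for the difference) in 21 of 39 proteasome genes. All 21 were lower, against 20.3% of all genes that were lower and 15.6% that were higher. Fewer members were called on the plain total of reads and without a trend in the prior variance. The difference is given here also for 5 genes of the other lists, each with the largest difference of its list. The differences below are log2 fold changes in DCIS.COM minus those in MCF10A. In the 20S core they were *PSMA1* (-0.36), *PSMA2* (-0.37), *PSMA3* (-0.36), *PSMA4* (-0.36), *PSMA5* (-0.42) and *PSMA6* (-0.31) for the alpha ring and *PSMB1* (-0.33), *PSMB2* (-0.40), *PSMB4* (-0.31), *PSMB5* (-0.29) and *PSMB7* (-0.41) for the beta ring. In the 19S particle and its chaperones they were *PSMC1* (-0.23), *PSMC6* (-0.23), *PSMD7* (-0.51), *PSMD9* (-0.27), *PSMD12* (-0.29), *PSMD13* (-0.32) and *PSMD14* (-0.37). Among the caps they were *PSME1* (-0.28), *PSME2* (-0.38) and *PSME4* (-0.49). Outside the members, *PSMB8* (-0.52), *POMP* (-0.42) and *RPS27A* (-0.46) were lower in the same sense, while *UBQLN2* (0.80) and *NFE2L1* (0.30) were higher. *UBQLN2* does not stand for its list: of the 15 associated factors it was the only 1 called higher, and 5 were called lower. No cause was tested.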

How the results depend on the processing

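Counts of called members and their median log2 fold change moved as follows. Where no cause is named, the cause was not tested. The shares of all genes called are given for the main setting only. In MCF10A the 22 rises became 14 under quantile normalization, 10 without a trend in the prior variance and 13 with MCF10A fitted alone, and 14 to 21 when a library was left out. The 1 fall became 0 under the total of recovered reads (an alternative chosen after seeing the data), without a trend, with MCF10A alone and with the replicate block, and 0 to 1 when a library was left out. The median of 0.17 became 0.11 (quantile) and 0.13 (total without *RN7SL1* and *RN7SL2*), and 0.14 to 0.19 when a library was left out.

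In DCIS.COM the 4 rises became 7 (recovered total) and 1 (no trend), and 3 to 4 when a library was left out. The 14 falls became 2 (recovered total), 2 (no trend) and 8 (DCIS.COM alone), and 8 to 13 when a library was left out. The median of -0.090 became -0.056 (total without the 7SL genes) and 0.027 (recovered total), and -0.093 to -0.070 when a library was left out. For the difference, the 0 higher members became 1 (*PSMC3*) with 1 CPM added, a minimum of 5 CPM, quantile normalization, centring, both other totals, voom weights and a threshold of 0.05, and stayed 0 when a library was left out. The 21 lower ones became 10 (recovered total) and 8 (no trend), and 18 to 21 when a library was left out. The median of -0.27 became -0.23 (quantile), -0.20 (without the 7SL genes) and -0.14 (recovered total), and -0.28 to -0.23 when a library was left out.

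Between the lines with pLOC-empty, the 7 lower members became 3 (quantile, both other totals) and 4 (no trend), 5 to 7 when a library was left out, and 19 to 21 were then higher. The median of 0.17 became 0.23, 0.28 and 0.24 (quantile, without the 7SL genes, recovered total), and 0.15 to 0.21 when a library was left out. With pLOC-*MALINC1*, the 12 higher became 19, 20 and 20 and the 14 lower 9, 6 and 4 under the same settings, 10 to 12 and 14 to 15 when a library was left out. The median of 0.035 became 0.15, 0.061 (centring), 0.22 and 0.23, and -0.039 to 0.059 when a library was left out. *PSMD2* turned to 0.0018 with pLOC-empty (without the 7SL genes) and with pLOC-*MALINC1* to 0.024, 0.019 and 0.039 (quantile, without the 7SL genes, recovered total), and *PSMD1* there to 0.0041 and 0.023 (the last 2). No other member called in the report turned direction under any alternative.

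Replicate numbers did not pair the libraries: deviations of same-numbered libraries correlated by -0.067 to 0.038. With the replicate block, 22 members rose and 0 fell in MCF10A, 4 rose and 12 fell in DCIS.COM and 23 were lower for the difference. A left-out library leaves 1 in its group, which is then assumed to vary like the others. Every member held at least 754 reads in each library, and the median standard error of its log2 fold changes between 2 groups was 0.039.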
